A study of Mus musculus with 11 samples.

Results

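β-catenin, its destruction complex and the casein kinase 1 enzymes were followed as 10 genes chosen by name, *Ctnnb1*, *Gsk3a*, *Gsk3b*, *Csnk1a1*, *Csnk1d*, *Csnk1e*, *Csnk1g2*, *Apc*, *Axin1* and *Btrc*, among the 38561 genes counted in RNA sequencing libraries of mouse facial processes. Each symbol matched 1 Ensembl gene, and all 10 passed the filter on low counts that left 17317 genes for testing. The tissue was dissected facial process explants of embryonic day 10.5 embryos of a mixed strain, which took in the mandibular and maxillary branchial arches and the nasal processes. The 11 libraries came from wild type embryos (wt, n = 2), homozygous *Rspo2* mutants (Rspo2KO, n = 3), homozygous *Wnt9b* mutants (Wnt9bKO, n = 3) and double homozygous mutants (DKO, n = 3), and no other allele or agent is named for any group. No tissue-restricted deletion is named for either mutation. The labels do not say whether a library held 1 embryo or a pool, or whether libraries came from separate litters, so p-values measure the spread between these libraries, which may be technical. In whole tissue, fewer cells of a type and less RNA per cell cannot be told apart.

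β-catenin is the transcriptional effector of canonical WNT signaling and also links cadherins to the cytoskeleton. Without a WNT ligand, the scaffolds AXIN and APC hold β-catenin next to casein kinase 1α and GSK3, which phosphorylate it in turn, and the phosphorylated protein is recognized by β-TrCP, the product of *Btrc*, for ubiquitination and degradation. WNT binding, enhanced by R-spondins, recruits AXIN to the receptor and stops this degradation, so that the pathway acts mainly on protein, which these libraries did not measure.

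Total counts ran from 11136166 to 18017344 per library, and no member had fewer than 535 counts in any library. The counting error of a single library was at most 0.01 on the log2 scale for *Ctnnb1*, beside an SD within genotypes of 0.09, but up to 0.03 beside 0.04 for *Csnk1d*, 0.06 beside 0.09 for *Gsk3a* and 0.06 beside 0.10 for *Btrc*. Markers of facial mesenchyme had over 3 counts in every library for 7 of 7 genes, and their sum was 952 to 1032 CPM in wt, 689 to 768 in Rspo2KO, 652 (Wnt9bKO 2) to 1234 (Wnt9bKO 1) in Wnt9bKO and 798 to 891 in DKO. *Rspo2* (chromosome 15) was at 14.8 and 16.0 CPM in wt (CPM, read counts in counts-per-million units) and between 4.73 and 6.58 CPM in Rspo2KO, but the library labelled Wnt9bKO 2 held 2.86 CPM and the library labelled DKO 3 held 15.5 CPM, against their labels. *Wnt9b* (chromosome 11) was not lower in its mutants, at 16.2 to 23.3 CPM in Wnt9bKO and 18.2 to 20.2 CPM in DKO against 10.8 and 13.4 CPM in wt. Counts per gene do not show which exons the reads came from, so this does not check the deletion. All wt and DKO libraries expressed *Xist*, whereas the libraries of both single mutants expressed Y-linked genes. DKO 3 also held some Y-linked reads (*Ddx3y* 4.43 CPM, against 0.0587 and 0.124 in the other DKO libraries and 57.5 to 75.7 in the single mutants). Except between DKO and wt, the groups compared below also differed in sex, so genotype and sex cannot be told apart there. Summed small nuclear RNA (1367 annotated genes) was 352 to 353 CPM in wt and 385 to 419 in Rspo2KO but 74.7 to 80.4 in Wnt9bKO and 70.1 to 82.6 in DKO. Summed erythroid markers (6 of 6 detected, none at 0) were 3926 to 4879, 4437 to 5741, 1779 to 2361 and 1734 to 2835 CPM in the same order, and forebrain and eye markers (6 of 6 detected, none at 0) were 43.8 to 50.5, 51.5 to 70.3, 79.0 to 144 and 82.9 to 96.5 CPM. These sums moved with the *Wnt9b* label, as the kinase changes below did, and their part in those changes was not tested. Neuronal markers (5 of 6) summed to 447 to 496 CPM in wt, 548 to 597 in Rspo2KO, 263 to 384 in Wnt9bKO and 468 to 515 in DKO, and endothelial markers (5 of 5) to 142 to 152 in wt and 161 to 187 over the 9 mutant libraries. Surface ectoderm markers (6 of 6) summed to 191 to 227 CPM over all libraries. Heart markers (1 of 5) summed to 25.9 CPM in wt 1, which stood apart, against 2.78 in wt 2 and at most 2.62 in the mutants. The part of these differences in the results was not tested. The member call lost without wt 1 is given below. Calls of partner genes were also lost without wt 1, and those genes are not listed.

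Among these 10 genes the transcripts of β-catenin, casein kinase 1α and the scaffold APC did not pass the test in any comparison, whereas 4 others differed between genotypes. *Gsk3b* rose 2.78-fold in Wnt9bKO and 2.68-fold in DKO relative to wt. *Csnk1d*, *Csnk1g2* and *Axin1* fell in both. *Gsk3b*, *Csnk1d* and *Csnk1g2* also changed in the same directions between DKO and Rspo2KO. No member passed the test between Rspo2KO and wt or between DKO and Wnt9bKO.

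**Figure D1:**
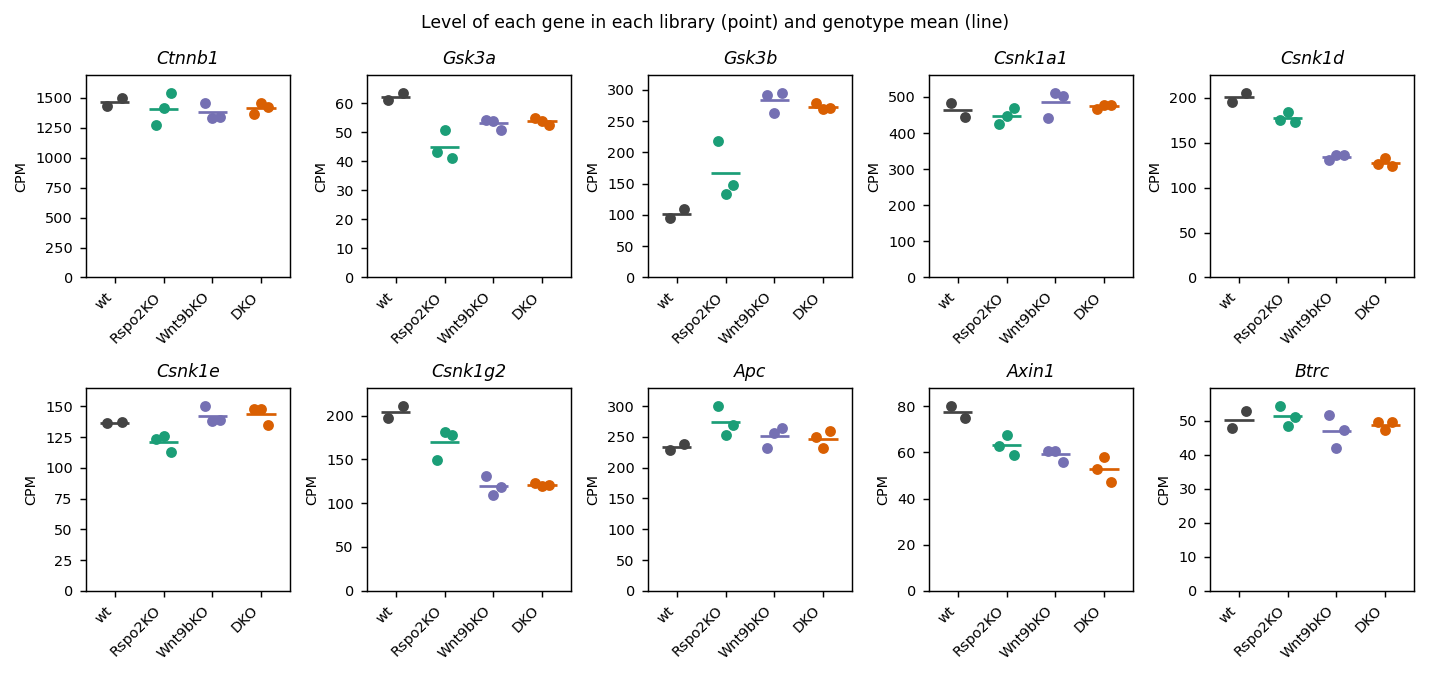
Level of each of the 10 genes in each of the 11 libraries, in CPM, by genotype. Points are libraries and lines are genotype means, and each vertical axis starts at 0. The 6 Wnt9bKO and DKO libraries sit above the other 5 for *Gsk3b* and below them for *Csnk1d* and *Csnk1g2*, whereas *Ctnnb1*, *Csnk1a1* and *Btrc* overlap between all genotypes.

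*Ctnnb1* (ENSMUSG00000006932, GRCm38 chromosome 9, 120929216 to 120960507, plus strand) encodes β-catenin itself. The stretch that the complex acts on is printed from its coding sequence in the GENCODE M21 annotation, codons 30 to 47, with the codons of the phosphorylated residues in capitals. These are codons 33, 37 and 41, the GSK3 sites, and codon 45, the site that casein kinase 1 phosphorylates first.

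Ctnnb1 codons 30 to 47: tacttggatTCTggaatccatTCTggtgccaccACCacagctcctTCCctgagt

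*Ctnnb1* was by far the most abundant of the 10 transcripts per length, at 272 ± 15.1 CPM per kb of exon (SD, n = 11). Its level was 1432 and 1497 CPM in wt, 1272, 1415 and 1539 CPM in Rspo2KO, 1460, 1335 and 1340 CPM in Wnt9bKO and 1360, 1455 and 1421 CPM in DKO. The highest and the lowest library were both Rspo2KO, and every pair of genotypes overlapped. The log2 fold change against wt was -0.09 in Wnt9bKO (95% interval -0.34 to 0.17), -0.06 in Rspo2KO (-0.31 to 0.20) and -0.05 in DKO (-0.31 to 0.20), so a change of 1.5-fold in either direction lay outside all 3 intervals. Of its exon bases, 759 are shared with *Ulk4* on the opposite strand. Whether the reads were counted by strand is not given in the sources used here, and without strand the reads of such pairs cannot be told apart.

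The GSK3 kinases, which phosphorylate β-catenin after casein kinase 1 has primed it, are encoded by *Gsk3a* (ENSMUSG00000057177, chromosome 7, 25228258 to 25237851, minus strand) and *Gsk3b* (ENSMUSG00000022812, chromosome 16, 38089001 to 38246084, plus strand). The proteins share a run of 114 identical residues in the kinase domain, but the coding bases of that run are only 79.2% identical. Printed here are 30 codons from this run that encode the same residues in both genes, with the 17 of 90 bases that differ in capitals, because they show how reads of these paralogs are separated. GC content is 56.7% in the *Gsk3a* stretch and 43.3% in the *Gsk3b* stretch.

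Gsk3a codons 253 to 282: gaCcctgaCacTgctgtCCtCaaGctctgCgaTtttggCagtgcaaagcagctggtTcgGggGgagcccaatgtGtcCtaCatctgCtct
Gsk3b codons 190 to 219: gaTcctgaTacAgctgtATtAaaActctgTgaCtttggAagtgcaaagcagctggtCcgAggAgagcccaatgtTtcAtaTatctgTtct

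No stretch of 50 bases in the transcripts of any member was found in another member. *Gsk3b* was at 94.5 and 109 CPM in wt, 218, 133 and 148 CPM in Rspo2KO, 292, 263 and 295 CPM in Wnt9bKO and 279, 269 and 270 CPM in DKO. All 6 Wnt9bKO and DKO libraries were above all 5 others, and the Rspo2KO libraries lay between wt and those 6, with Rspo2KO 1 farthest from the other two. The increase was 1.47 ± 0.17 on the log2 scale (SE, adjusted p = 4.28e-05, edgeR's quasi-likelihood test with Benjamini-Hochberg adjustment) in Wnt9bKO and 1.42 ± 0.17 (adjusted p = 6.26e-05) in DKO relative to wt, and 0.71 ± 0.15 (adjusted p = 0.00398) in DKO relative to Rspo2KO. Between Rspo2KO and wt the groups did not overlap and the fitted difference was 0.71 ± 0.17, but the gene did not pass the adjusted threshold (adjusted p = 0.209). Without Rspo2KO 1 that difference was 0.47 (adjusted p = 0.474).

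The order of genotypes was different for *Gsk3a*. It was at 61.0 and 63.5 CPM in wt, 43.2, 50.8 and 41.0 CPM in Rspo2KO, 54.3, 53.9 and 50.8 CPM in Wnt9bKO and 54.7, 54.0 and 52.6 CPM in DKO. The 2 wt libraries were the highest of the 11, and the 3 Rspo2KO libraries were the lowest. The log2 fold change against wt was -0.47 ± 0.11 in Rspo2KO (adjusted p = 0.205), -0.23 ± 0.11 in Wnt9bKO (adjusted p = 0.109) and -0.21 ± 0.11 in DKO (adjusted p = 0.157), so none passed. In all, 820 exon bases of *Gsk3a* overlap *9130221H12Rik*, an antisense transcript, and 25.7% of its 50-base stretches also occur in another gene on either strand, so its level is less certain than that of *Gsk3b*, where the share is 0.0203%.

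The balance between the GSK3 transcripts was followed as a ratio. The ratio of *Gsk3b* to *Gsk3a* CPM was 1.55 and 1.72 in wt, 5.05, 2.63 and 3.62 in Rspo2KO, 5.37, 4.88 and 5.81 in Wnt9bKO and 5.10, 4.99 and 5.14 in DKO. Every mutant library was above both wt libraries, and Rspo2KO 1 fell within the range of the *Wnt9b* mutants. The mean ratio was 1.63 ± 0.120 (SD, n = 2) in wt and 5.08 ± 0.0812 (SD, n = 3) in DKO. Per kb of exon, *Gsk3b* was below *Gsk3a* in wt (10.4 ± 1.05 against 21.5 ± 0.597 CPM per kb, SD, n = 2) and above it in Wnt9bKO (28.8 ± 1.79 against 18.3 ± 0.660, SD, n = 3) and DKO (27.8 ± 0.543 against 18.5 ± 0.381, SD, n = 3).

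**Figure D2:**
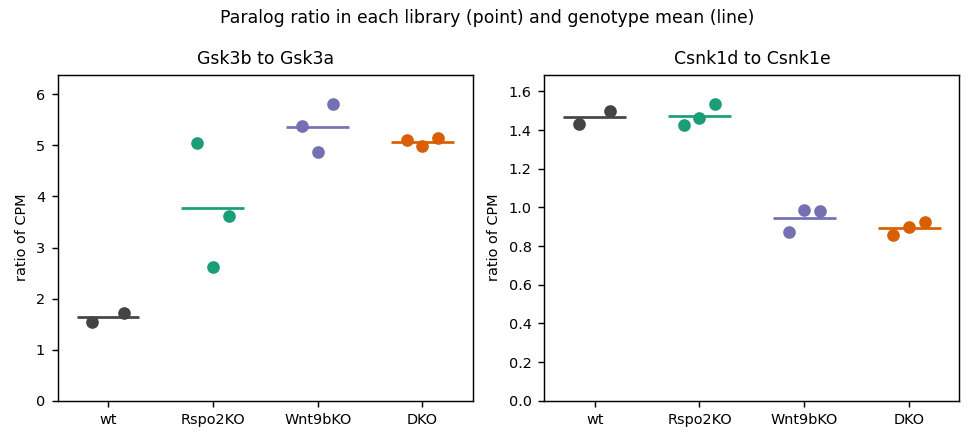
Ratio of CPM between paralogs in each library (points) with genotype means (lines), *Gsk3b* to *Gsk3a* on the left and *Csnk1d* to *Csnk1e* on the right. The first ratio was lowest in wt, at 1.55 and 1.72, and the second was between 0.855 and 0.985 in the 6 Wnt9bKO and DKO libraries and between 1.43 and 1.53 in the other 5.

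Casein kinase 1δ and 1ε are close paralogs that act in WNT signaling, partly through phosphorylation of Dishevelled, and in the circadian clock. They are encoded by *Csnk1d* (ENSMUSG00000025162, chromosome 11, 120961749 to 120991330, minus strand) and *Csnk1e* (ENSMUSG00000022433, chromosome 15, 79417856 to 79455566, minus strand). Their longest shared run is 179 residues, and its coding bases are 82.5% identical. The stretch shown has 12 differing bases of 90, in capitals, and is printed because this pair of near-identical kinases differed in response.

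Csnk1d codons 70 to 99: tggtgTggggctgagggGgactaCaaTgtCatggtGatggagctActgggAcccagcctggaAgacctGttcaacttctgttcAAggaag
Csnk1e codons 70 to 99: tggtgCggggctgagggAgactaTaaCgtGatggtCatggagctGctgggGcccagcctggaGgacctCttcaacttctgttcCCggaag

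*Csnk1d* was at 195 and 205 CPM in wt, 176, 184 and 174 CPM in Rspo2KO, 131, 136 and 137 CPM in Wnt9bKO and 126, 133 and 125 CPM in DKO. The *Wnt9b* mutant libraries were all below the other 5, and the spread within genotypes was the smallest of the 10 genes (SD 0.04 on the log2 scale, against 0.21 for *Gsk3b*, the largest). *Csnk1d* fell by 0.57 on the log2 scale in Wnt9bKO (SE 0.09, adjusted p = 0.000384) and by 0.65 in DKO (SE 0.09, adjusted p = 0.000191) relative to wt, and by 0.48 in DKO relative to Rspo2KO (SE 0.08, adjusted p = 0.00123).

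*Csnk1e* ranged from 113 to 150 CPM over the 11 libraries. Its log2 fold change was 0.06 in Wnt9bKO (95% interval -0.15 to 0.27) and 0.07 in DKO (-0.14 to 0.28) against wt. In DKO against Rspo2KO it was 0.25 ± 0.09, with no overlap between the groups, and did not pass the adjusted threshold (adjusted p = 0.0594). The ratio of *Csnk1d* to *Csnk1e* CPM accordingly was 1.47 ± 0.0457 (SD, n = 5) over the wt and Rspo2KO libraries and 0.920 ± 0.0546 (SD, n = 6) over the Wnt9bKO and DKO libraries, with no overlap.

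*Csnk1g2* (ENSMUSG00000003345, chromosome 10, 80622838 to 80640749, plus strand) encodes casein kinase 1γ2, of the membrane-bound branch of the family that phosphorylates the receptor LRP6 rather than β-catenin. It was at 197 and 211 CPM in wt, 149, 181 and 178 CPM in Rspo2KO, 132, 110 and 119 CPM in Wnt9bKO and 123, 120 and 121 CPM in DKO. As for *Csnk1d*, the *Wnt9b* mutant libraries were all below the rest, with the Rspo2KO libraries between them and wt. *Csnk1g2* fell by 0.77 on the log2 scale in Wnt9bKO (SE 0.11, adjusted p = 0.000210), by 0.75 in DKO (SE 0.11, adjusted p = 0.000280) and by 0.48 in DKO relative to Rspo2KO (SE 0.10, adjusted p = 0.00417).

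*Axin1* (ENSMUSG00000024182, chromosome 17, 26138688 to 26195811, plus strand) encodes the scaffold around which the complex is built and whose amount is thought to limit it. It was at 80.0 and 75.0 CPM in wt, 62.8, 67.6 and 58.9 CPM in Rspo2KO, 60.7, 60.7 and 56.0 CPM in Wnt9bKO and 53.0, 57.9 and 47.0 CPM in DKO. Both wt libraries were above all 9 mutant libraries, and the mutant genotypes followed each other closely, with DKO below Rspo2KO and overlapping Wnt9bKO. *Axin1* fell by 0.39 on the log2 scale in Wnt9bKO (SE 0.11, adjusted p = 0.0147) and by 0.56 in DKO (SE 0.11, adjusted p = 0.00226). The Wnt9bKO call was lost without wt 1 (-0.35, adjusted p = 0.103) or without Wnt9bKO 3 (-0.33, adjusted p = 0.0653). In Rspo2KO the log2 fold change was -0.30 ± 0.11 (adjusted p = 0.303).

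The remaining members did not pass the test in any comparison. *Csnk1a1* (ENSMUSG00000024576, chromosome 18, 61555274 to 61590061, plus strand), which encodes the priming kinase casein kinase 1α, ranged from 424 to 511 CPM and its log2 fold changes from -0.06 to 0.09 over the 5 comparisons between genotypes. *Apc* (ENSMUSG00000005871, chromosome 18, 34220924 to 34322552, plus strand), which encodes the large scaffold APC, ranged from 229 to 300 CPM, with all 3 Rspo2KO libraries above both wt libraries (0.23 ± 0.11 on the log2 scale, adjusted p = 0.435). *Btrc* (ENSMUSG00000025217, chromosome 19, 45363734 to 45530013, plus strand), which encodes the substrate receptor β-TrCP of the ubiquitin ligase, ranged from 41.9 to 54.2 CPM, and every pair of genotypes overlapped.

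Per kb of exon, the mean levels over the 11 libraries ran from 272 CPM per kb for *Ctnnb1* through *Csnk1a1* (44.6 ± 2.54, SD), *Csnk1d* (31.2 ± 6.07), *Csnk1g2* (30.8 ± 7.49), *Gsk3b* (21.9 ± 7.98), *Csnk1e* (20.6 ± 1.72), *Gsk3a* (18.2 ± 2.26), *Axin1* (16.1 ± 2.47) and *Apc* (15.7 ± 1.29) to *Btrc* (2.91 ± 0.199). Apart from *Ctnnb1* at the top and *Btrc* at the bottom, only *Csnk1a1* was separated from its neighbour by more than the sum of both SDs. The other neighbours differed by less than their spread over libraries, which for *Gsk3b*, *Csnk1d* and *Csnk1g2* includes the differences between genotypes.

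The first comparison, Wnt9bKO against wt, sets *Wnt9b* mutants against wt where *Rspo2* is intact, and its groups also differed in sex. In it 4 of 10 members were called at an adjusted p below 0.05, 1 higher and 3 lower, against 32.8% of all genes tested (16.8% higher and 16.0% lower), so the share of members called was close to that of all genes. The groups did not overlap for 6 of 10 members and for 56.3% of all genes. The median log2 fold change of the members was -0.09 and that of all genes 0.01. The study's threshold was p below 0.05 and a change over 1.5-fold in DESeq2, and it does not say whether p was adjusted. Here the same cutoffs were put on the unadjusted p of edgeR, with 2 wt libraries, so the counts are not those of the study. With them 2 members passed, *Gsk3b* and *Csnk1g2*, against 24.8% of all genes.

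DKO against wt, with the same wt libraries, called the same 4 members in the same directions, against 27.5% of all genes (14.3% higher and 13.1% lower). The groups did not overlap for 5 of 10 members and for 58.1% of all genes, and the median of the members was -0.05 against 0.01 over all genes. With the same cutoffs on unadjusted p and fold change 3 members passed (*Gsk3b*, *Csnk1d* and *Csnk1g2*), against 20.4% of all genes. Both groups of this comparison expressed *Xist*, unlike those of Wnt9bKO against wt.

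Rspo2KO against wt sets *Rspo2* mutants against wt where *Wnt9b* is intact. The wt libraries expressed *Xist* and the Rspo2KO libraries Y-linked genes, so mutation and sex cannot be told apart here. No member was called by edgeR, against 0.0346% of all genes, although 4 of 10 had an unadjusted p below 0.05 (*Gsk3a*, *Gsk3b*, *Axin1* and *Csnk1g2*), as did 11.9% of all genes. The groups did not overlap for 7 of 10 members and for 32.9% of all genes. With DESeq2, 2 members were called, *Gsk3a* (-0.48, adjusted p = 0.0146) and *Gsk3b* (0.70, adjusted p = 0.0120), and edgeR called the same 2 with no low-count filter (-0.46, adjusted p = 0.0350, and 0.72, adjusted p = 0.000159). Over all genes, DESeq2 called 177 of 28088 and edgeR with no filter 572 of 28095. With the cutoffs on unadjusted p and fold change in edgeR 1 member passed, *Gsk3b*, against 4.68% of all genes. The median was -0.11, against 0.00 over all genes.

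**Figure D3:**
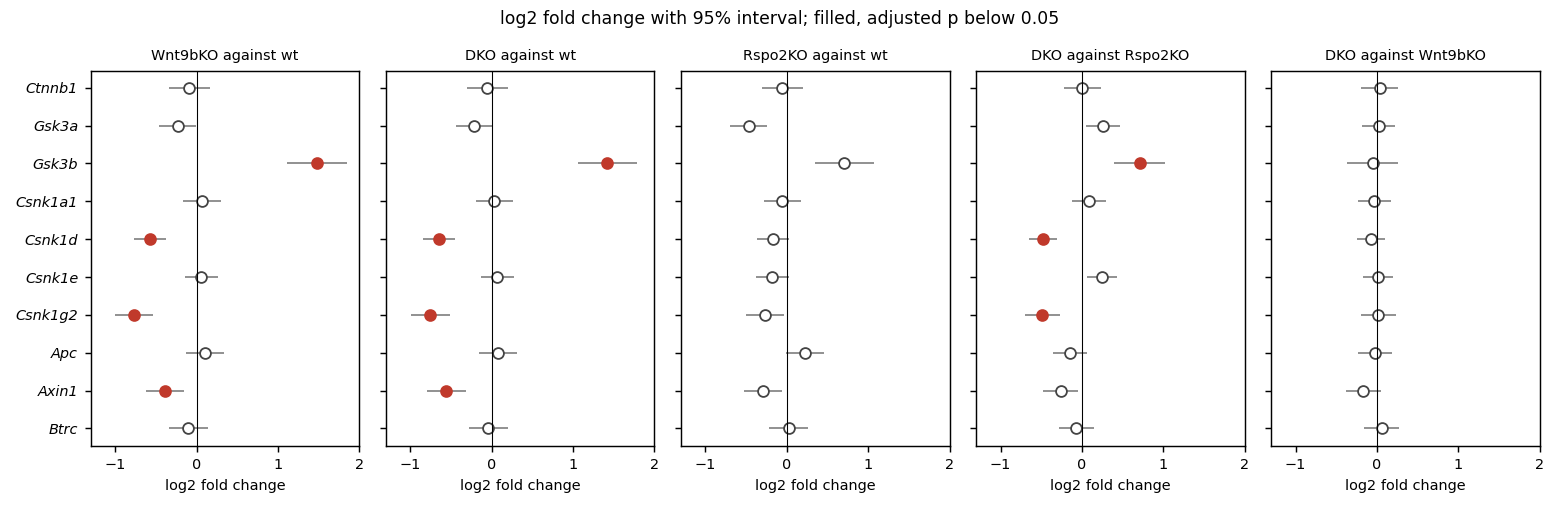
log2 fold change of each gene in the 5 comparisons between genotypes, with 95% intervals as bars. Filled points passed an adjusted p of 0.05 over all genes tested. *Gsk3b* is to the right of 0 and *Csnk1d* and *Csnk1g2* to the left in Wnt9bKO against wt, DKO against wt and DKO against Rspo2KO, and no point is filled for Rspo2KO against wt or DKO against Wnt9bKO.

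DKO against Rspo2KO compares *Wnt9b* mutant with intact *Wnt9b* where *Rspo2* is mutant, again between groups that differed in sex. It shares no library with Wnt9bKO against wt. It called 3 of 10 members, 1 higher and 2 lower, against 18.2% of all genes (9.17% higher and 9.07% lower), with a median of -0.03 against -0.00 over all genes and no overlap between groups for 6 of 10 members and 36.5% of all genes. The 3 were among the 4 called in Wnt9bKO against wt and had the same directions. Over all genes, 2561 genes were called in both, of 5674 and 3159 called in each, and 2552 of them had the same direction. Of the 10 members 7 had the same sign in both comparisons, and of all genes 78.1% did. *Axin1* was lower in each, with -0.26 ± 0.10 in DKO against Rspo2KO (adjusted p = 0.0854), whereas *Gsk3a* was at -0.23 in one and 0.26 in the other, and neither value passed. With the GC content and length offset described below, *Gsk3a* passed in DKO against Rspo2KO (0.30, adjusted p = 0.0268). So did *Apc* (-0.27, adjusted p = 0.0261), and that setting called 3395 of 17317 genes.

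**Figure D4:**
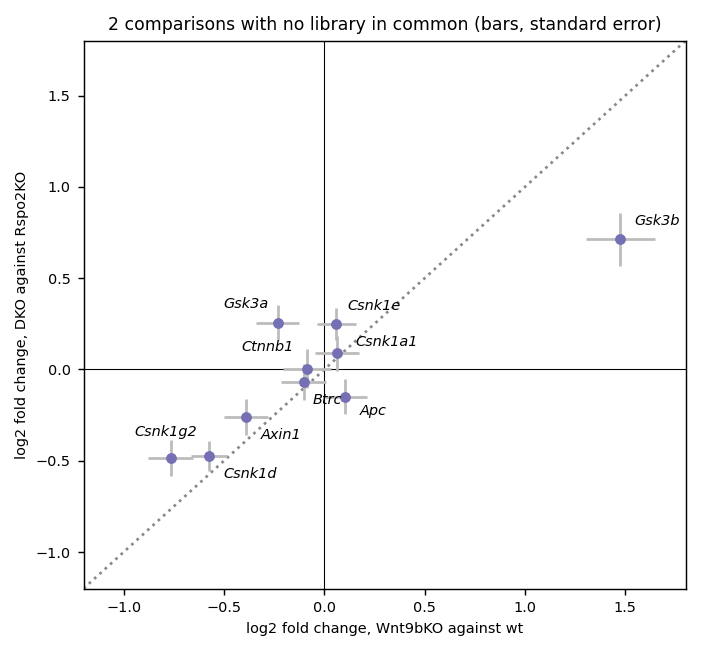
log2 fold change of each gene in Wnt9bKO against wt (horizontal axis) and in DKO against Rspo2KO (vertical axis), with standard errors as bars and the line of equal change dotted. *Gsk3b* lies at 1.47 and 0.71, below the line, and *Csnk1d* and *Csnk1g2* lie in the lower left corner.

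By the labels, DKO against Wnt9bKO compares *Rspo2* mutant with intact *Rspo2* where *Wnt9b* is mutant, and its groups also differed in sex. *Rspo2* itself overlapped between these groups, with a log2 fold change of -0.91 ± 0.56 (adjusted p = 0.959). Wnt9bKO 2 held 2.86 CPM of it and DKO 3 held 15.5 CPM, so the comparison is a limited measure of *Rspo2* mutation. No member was called in it by edgeR or DESeq2, against 0.121% of all genes called in edgeR. An unadjusted p below 0.05 was found for 0 members and 5.63% of all genes. All 10 pairs of groups overlapped, whereas 11.2% of all genes did not overlap, and the log2 fold changes ran from -0.17 for *Axin1* to 0.06 for *Btrc*. The 95% intervals were -0.36 to 0.26 for *Gsk3b*, -0.25 to 0.10 for *Csnk1d* and -0.20 to 0.23 for *Csnk1g2*. A difference as large as those of Wnt9bKO or DKO against wt was outside them for these 3 genes. The Rspo2KO against wt values were 0.71, -0.17 and -0.27 in the same order, and that of *Csnk1d* lay inside its interval.

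Whether the effect of *Wnt9b* mutation differed between *Rspo2* backgrounds was tested by the interaction, which called no member in edgeR or DESeq2 against 0.0635% of all genes. An unadjusted p below 0.05 was found for 9.44% of all genes and for 2 members, *Gsk3b* (-0.76 ± 0.22, adjusted p = 0.427) and *Gsk3a* (0.49 ± 0.14, adjusted p = 0.427). For *Gsk3b* the estimate was -0.52 without Rspo2KO 1, and it passed with no low-count filter (-0.77, adjusted p = 0.00734). That setting called 347 of 28095 genes for the interaction. The wt and DKO libraries expressed *Xist* and those of the single mutants did not, so in this design the interaction and the sex of the embryos cannot be told apart.

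The libraries labelled Wnt9bKO 2 and DKO 3, whose *Rspo2* counts went against their labels, were also left out together. Then the log2 fold change of *Gsk3b* was 1.52 in Wnt9bKO, 1.42 in DKO and 0.72 in DKO against Rspo2KO (adjusted p = 0.000179, 0.000256 and 0.0103), and 4, 4 and 3 members were called, as with them. Over all genes, 5086, 4393 and 2861 of 17135 were called in the same order. *Axin1* in DKO against wt was -0.49 (adjusted p = 0.00958). In DKO against Wnt9bKO, the log2 fold change of *Gsk3b* was -0.10 to -0.02 over the 21 alternatives, this one among them. That of *Csnk1d* was -0.10 to -0.05 and that of *Csnk1g2* -0.05 to 0.08.

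The members differ in base composition and length, and libraries can differ in how they recover such transcripts. Transcript GC content ran from 40.6% in *Btrc* to 59.8% in *Gsk3a*, and *Gsk3b* (46.1%) had a lower GC content and longer exons (9831 bases) than *Csnk1d* (54.1%, 5022 bases), *Csnk1g2* (57.3%, 4835 bases) and *Axin1* (56.6%, 3828 bases). Over the 10 members the log2 fold change in Wnt9bKO against wt had a Spearman correlation of -0.61 with GC content and 0.67 with exon length, as a description of points that share the same libraries, and over 17020 genes the values were -0.09 and 0.20. In Rspo2KO against wt the members' values were -0.88 and 0.88, against -0.11 and 0.15 over the genes. With an offset per library for GC content and length, *Gsk3b* was still higher in Wnt9bKO (1.22, adjusted p = 6.74e-05) and *Csnk1d* (-0.53, adjusted p = 0.000609), *Csnk1g2* (-0.73, adjusted p = 0.000308) and *Axin1* (-0.30, adjusted p = 0.0262) still lower. The offset turned the direction of *Apc* from 0.10 to -0.28 (adjusted p = 0.0255) and brought *Btrc* past the threshold (-0.45, adjusted p = 0.00834). In DKO against wt the same offset gave -0.28 for *Apc* (adjusted p = 0.0264) and -0.39 for *Btrc* (adjusted p = 0.0202), so that 6 members passed in each comparison in place of 4, and for these low-GC genes with long exons the absence of a call depends on this correction. In Rspo2KO against wt the offset moved *Apc* from 0.23 to -0.01 (adjusted p = 0.969). *Csnk1a1* moved to -0.19 in Wnt9bKO and -0.22 in DKO against wt and did not pass (adjusted p = 0.162 and 0.123). Over all genes the offset called 5720 of 17317 in Wnt9bKO and 4920 in DKO against wt.

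**Figure D5:**
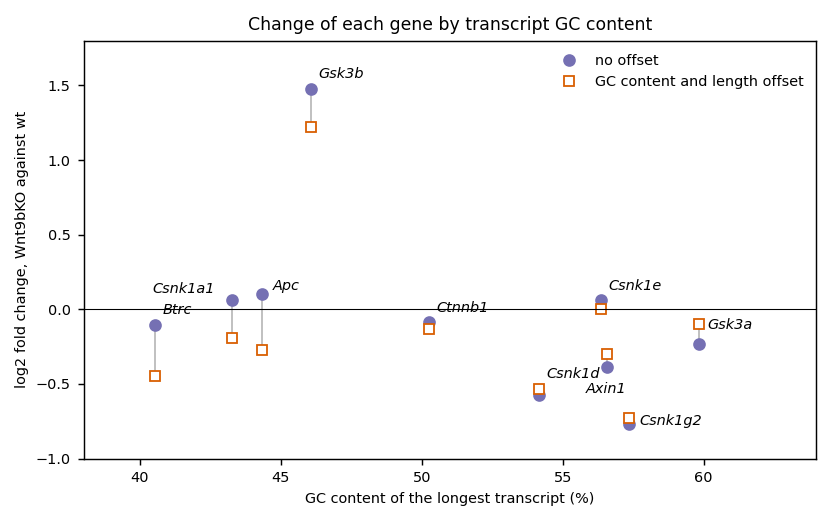
log2 fold change in Wnt9bKO against wt of each gene (vertical axis) by the GC content of its longest transcript in percent (horizontal axis), without an offset (filled circles) and with an offset for GC content and length (open squares). *Gsk3b* moves from 1.47 to 1.22, *Btrc*, at 40.6% GC, moves from -0.10 to -0.45, and *Apc*, at 44.3% GC, crosses 0 from 0.10 to -0.28.

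Around these 10 genes, a list of 50 partners and regulators was measured, of which all 50 were tested. In Wnt9bKO against wt 22 were called, 15 higher and 7 lower, against 32.8% of all genes (16.8% and 16.0%), with a median of 0.13 against 0.01 over all genes. With the GC content and length offset the split was 12 higher and 11 lower. In DKO against wt 18 were called, 12 higher and 6 lower (10 and 11 with the offset), against 27.5% of all genes. In DKO against Rspo2KO 7 of 50 were called, 5 higher and 2 lower, against 18.2% of all genes. With the offset 5 were higher and 4 lower, and 3395 of 17317 genes were called. None was called in Rspo2KO against wt (15 of 50 with an unadjusted p below 0.05, against 11.9% of all genes, and 1 called by DESeq2) or in DKO against Wnt9bKO (1 of 50, against 5.63%, and 0).

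Nuclear partners of β-catenin showed the most increases in Wnt9bKO against wt, with 6 of 10 higher and 0 lower. Of all genes 16.8% were higher and 16.0% lower there. *Tcf7l1*, which encodes a TCF factor that mostly represses WNT targets, rose from 5.53 to 7.00 CPM in wt to 17.7 to 21.3 CPM in Wnt9bKO (log2 fold change 1.63 ± 0.26, adjusted p = 0.000365). *Tcf7l2* rose by 1.09 ± 0.18 (adjusted p = 0.000525) and the co-activator *Bcl9* by 1.01 ± 0.21 (adjusted p = 0.00276). In Rspo2KO against wt *Tcf7l1* (0.90), *Tcf7l2* (0.51) and *Bcl9* (0.53) were also higher with no overlap between the groups. None of them passed there (adjusted p = 0.221, 0.290 and 0.338), and *Ctnnbip1* was at -0.15. *Ctnnbip1*, which encodes ICAT, an inhibitor of the binding of β-catenin to TCF, rose by 0.45 ± 0.12 in Wnt9bKO (adjusted p = 0.00835) and by 0.60 ± 0.10 in DKO against Rspo2KO (adjusted p = 0.00112), where it was the only one of the 10 called.

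Of the 7 paralogs and further scaffolds of the complex, only *Csnk1g3* was called in Wnt9bKO, against 32.8% of all genes. *Csnk1g3* is a paralog of *Csnk1g2*, and it rose (0.49 ± 0.11, adjusted p = 0.00292) where *Csnk1g2* fell. *Axin2*, a paralog of *Axin1* and a widely used transcriptional target of canonical WNT signaling, was not called in any comparison. It was at 53.0 to 55.0 CPM in wt, 38.9 to 53.7 in Rspo2KO, 42.8 to 75.1 in Wnt9bKO and 48.0 to 68.3 in DKO, with a log2 fold change of 0.08 ± 0.21 in Wnt9bKO (adjusted p = 0.790). The spread of *Axin2* within the mutant genotypes was wide beside these differences. By qRT-PCR the study reports *Axin2* as severely lower in DKO than in either single mutant. It measured the nasal and maxillary processes apart from the mandibular arch, whereas the tissue sequenced here took in all of them.

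Among 7 genes whose products restrain the complex or GSK3, *Frat2*, a GSK3-binding protein, rose in Wnt9bKO (0.67 ± 0.18, adjusted p = 0.0110), and *Dvl1*, a Dishevelled gene, and *Gskip*, a GSK3-binding anchor protein, fell (-0.58 ± 0.14, adjusted p = 0.00506, and -0.43 ± 0.14, adjusted p = 0.0296). In DKO against Rspo2KO *Dvl1* fell (-0.47 ± 0.12, adjusted p = 0.0163), while *Frat2* (0.53 ± 0.16, adjusted p = 0.0286) and *Dvl2* (0.41 ± 0.11, adjusted p = 0.0165) rose. *Dvl2* was at 0.06 ± 0.12 in Wnt9bKO against wt (adjusted p = 0.734).

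Of 9 subunit genes of protein phosphatase 2A, which can remove phosphate from β-catenin and AXIN, 4 were higher and 1 lower in Wnt9bKO. The shares of all genes were 16.8% and 16.0%. The scaffold subunit *Ppp2r1b* (0.45 ± 0.12, adjusted p = 0.00854) and the regulatory subunit *Ppp2r5c* (0.44 ± 0.10, adjusted p = 0.00409) rose and *Ppp2r5d* fell (-0.39 ± 0.10, adjusted p = 0.0111). *Ppp2r5c* also rose in DKO against Rspo2KO (0.44 ± 0.09, adjusted p = 0.00341), but lost its call in Wnt9bKO against wt with the GC content and length offset (0.23, adjusted p = 0.0768), as did *Ppp2r5d* (-0.26, adjusted p = 0.0630).

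The ubiquitin ligase subunits and the enzymes of AXIN turnover had 1 gene higher and 4 lower of 10 in Wnt9bKO, against 16.8% and 16.0% of all genes. The ligase subunits *Rbx1* (-0.57 ± 0.13, adjusted p = 0.00404) and *Skp1a* (-0.50 ± 0.13, adjusted p = 0.00810), which work with the *Btrc* product, fell. *Siah1b*, an X-linked ubiquitin ligase gene, fell from 28.0 to 31.8 CPM in wt to 14.3 to 19.5 CPM in Wnt9bKO (-0.81 ± 0.15, adjusted p = 0.00108) and also fell in DKO against Rspo2KO (-0.68 ± 0.14, adjusted p = 0.00322). Both of these comparisons set *Xist*-expressing libraries against libraries with Y-linked genes, and in opposite order. Of 7 adhesion partners, *Ctnna1*, which encodes αE-catenin, and *Jup*, which encodes plakoglobin, a close relative of β-catenin, rose in Wnt9bKO (0.45 ± 0.10, adjusted p = 0.00333, and 0.57 ± 0.16, adjusted p = 0.0134). In Rspo2KO against wt *Jup* was at 0.54 ± 0.16 with no overlap between the groups, and did not pass (adjusted p = 0.224). *Ctnna1* also rose in DKO against Rspo2KO (0.32 ± 0.09, adjusted p = 0.0208). Counts of calls moved with single libraries, both among these partners and over all genes. Without Rspo2KO 1, 17 of the 50 were called in DKO against Rspo2KO, as were 3991 of 17209 genes. With either wt library left out, fewer of the 50 and fewer of all genes were called in Wnt9bKO and in DKO against wt.

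The genes tested whose centred log2 CPM lay closest to that of *Gsk3b* over the 11 libraries were *Tacc2*, *Slc26a2* and *Atf7ip*, with root mean square differences of 0.0648, 0.0795 and 0.0797, where the values of *Gsk3b* itself had a root mean square of 0.591. For *Ctnnb1* they were *Pdhx*, *Cmpk1* and *Metap1*, at 0.0394, 0.0397 and 0.0428 beside 0.0770 for *Ctnnb1*.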

How the data were processed

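Total RNA was sequenced from 11 libraries. The authors deposited 1 file of raw read counts per gene and library, not normalized. Per the labels the reads were trimmed with Cutadapt, aligned to GRCm38 with STAR, counted with HTSeq and tested with DESeq2, whose versions are not given in the sources used here, and neither is the strand setting. The members, gene lists and tests were chosen with earlier results of these data known.

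Counts were tested with edgeR 4.0.16 in R 4.3.3 (TMM factors, filterByExpr, quasi-likelihood test, 1 mean per genotype over all 11 libraries), with p-values adjusted by Benjamini-Hochberg over 17317 genes. CPM used TMM library sizes. Intervals are 95% and use the SE and degrees of freedom of that test. Symbols, exon lengths, GC content and coding sequence came from GENCODE M21, in which 36723 of 38561 genes were found. The scripts were tested on simulated counts. Beside the members, genes were named by rule, as up to 3 of each partner group with the smallest p among those called in Wnt9bKO against wt and in DKO against Rspo2KO, *Axin2*, the mutated genes and sex markers, and the 3 genes closest to *Ctnnb1* and *Gsk3b*. Alternatives were DESeq2 1.42.0, other scaling factors and filters, the compared groups alone, a GC content and length offset (loess, span 0.3), a replicate block, and leaving out libraries. No 2 libraries of a genotype agreed within sampling noise (chi-square per degree of freedom 5.50 to 36.8).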

Additional observations from a re-analysis of the deposited data

How the results depend on the processing

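The 11 member calls were recomputed under 21 alternatives each, giving 231 values, of which 229 kept their direction and their call. *Axin1* in Wnt9bKO against wt lost its call in the other 2, without wt 1 and without Wnt9bKO 3. Direction turned with a call for *Apc* alone, with the GC content and length offset (-0.28 in both Wnt9bKO and DKO against wt) and with that offset and the replicate block (-0.29 in both). With the offset, alone or with the block, 6 members (1 higher, 5 lower) were called in Wnt9bKO and in DKO against wt in place of 4, since *Apc* and *Btrc* passed as lower. Member counts moved to 2 in Rspo2KO against wt (DESeq2, and no filter), to 5 in DKO against Rspo2KO (offset, block, and both together) and to 1 for the interaction (no filter). Counts of the 50 partners moved to 1 (DESeq2) and 5 (no filter) in Rspo2KO against wt, to 1 in DKO against Wnt9bKO and 4 for the interaction (no filter), and to 11 in DKO against Rspo2KO (block with offset). Over all genes, no filter called 572 of 28095 in Rspo2KO against wt, 220 in DKO against Wnt9bKO and 347 for the interaction. DESeq2 called 177 of 28088 in Rspo2KO against wt. In DKO against Rspo2KO the offset called 3395 of 17317, the block 3475 and both together 3616. The cause of these moves was not tested. Leaving out 1 library at a time gave 3 to 4 members in Wnt9bKO against wt, 4 to 4 in DKO against wt and 3 to 4 in DKO against Rspo2KO. For the partners it gave 9 to 26 (9 without wt 1, 14 without wt 2), 6 to 21 (6 without wt 1, 9 without wt 2) and 4 to 17 (17 without Rspo2KO 1, 4 without Rspo2KO 2 or DKO 2), and 0 in the other comparisons, members included.

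Replicate numbers are shared between genotypes, but they do not pair the samples by the labels, and deviations of same-numbered libraries correlated weakly (r from -0.11 to 0.24 over 15 pairs, 3 over 0.1). In all, 8 of 11 libraries correlated best with a library of their own number, as a hint from the data only. With the replicate block 4 members were called in Wnt9bKO against wt, 4 in DKO against wt and 5 in DKO against Rspo2KO, where *Csnk1e* (adjusted p = 0.0384) and *Axin1* (adjusted p = 0.0487) were added. Over all genes the block called 6056, 5134 and 3475 of 17317 in the same order. With 2 wt libraries, calls against wt rest on a small control group, and counting error was a sizeable part of the spread between libraries for *Csnk1d*, *Gsk3a* and *Btrc*.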
